A study of Sus scrofa with 3 samples.

Results

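Transcript levels of genes for bile acid synthesis, conjugation, transport and sensing were measured in pig liver by RNA-Seq. Of the 10 named genes (CYP7A1, CYP8B1, CYP27A1, CYP7B1 and HSD3B7 for synthesis, BAAT for conjugation, SLC10A1 and ABCB11 for transport, NR1H4 and NR0B2 for sensing), 8 were found by symbol among 34579 features, of which 22945 were mRNA. NR0B2 was found through its RefSeq gene ID as LOC100526226 and is given beside the 8, and CYP8B1 was not analysed here. The 8 genes and NR0B2 all passed a deposited FPKM of 1 in every library, a minimum that 15613 mRNA features passed.

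Bile acids are made from cholesterol in hepatocytes. The classic route begins with 7alpha-hydroxylation of cholesterol by CYP7A1 and the alternative route with oxidation of its side chain by CYP27A1, after which bile acids are joined to taurine or glycine, pumped into bile, reabsorbed in the ileum and taken up again by the liver. Bile acids bind the nuclear receptor FXR, encoded by NR1H4, which induces the corepressor SHP, encoded by NR0B2, in the liver and the hormone FGF19 in the ileum, and both lower CYP7A1 transcription.

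The animals were Chinese Wuzhishan pigs, 6 to 7 months old when obtained per the paper. Livers were taken later, after acclimation, surgery and weeks on the diet. All ate a diet rich in fat and cholesterol that also held sodium cholate, a bile acid salt, so no library represents liver without dietary bile acid. IM pigs were intact males given a sham operation, CM pigs were castrated, and CMT pigs were castrated and injected with testosterone propionate. Per the labels, each group gave 1 library from the pooled liver RNA of 3 pigs. There was therefore no replicate of any group, no p-value can be given, and the spread between pigs is unknown. A gene was counted as higher or lower when its deposited FPKM values differed by at least 1.5-fold, and intervals are 95% exact binomial intervals on reads recovered from the FPKM values, covering counting error only.

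The depth as recovered reads was 32197633 for IM, 36126736 for CM and 25419904 for CMT. The divisors of the deposited values, 2.51, 3.42 and 2.04, were not proportional to those reads. On those reads, FPKM by its definition would be lower by a factor of 12.8 for IM, 10.6 for CM and 12.5 for CMT. All levels and the minimum of 1 FPKM are thus on the deposited scale and are not FPKM in the strict sense. Ratios and ranks of genes within a library do not depend on this factor. Scaling the values to the recovered reads moved every log2 ratio of CM to IM by 0.28, of CMT to CM by -0.24 and of CMT to IM by 0.042. Of 10 hepatocyte markers, 9 were matched, all were above 0 in every library, and their FPKM summed to 992465 for IM, 739867 for CM and 749144 for CMT. The median of their log2 ratios between CM and IM was -0.45, with 1 (TAT) past 1.5-fold. Over the same markers it was 0.29 between CMT and CM and -0.098 between CMT and IM, and ALB made up most of the sums (690375, 476360 and 445509 FPKM in IM, CM and CMT). These medians ran the same way as those of the members below, and their part in the members' ratios was not tested. In whole tissue, fewer hepatocytes and less of an RNA per hepatocyte cannot be told apart.

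In CM against IM, CYP7A1 was higher while 6 of the other 7 genes found by symbol were lower past 1.5-fold. The lower genes were CYP27A1, CYP7B1, HSD3B7, BAAT, SLC10A1 and NR1H4, and the remaining gene, ABCB11, was 1.49-fold lower. Over all tested mRNA features 11.1% were higher and 12.1% were lower past the same threshold (23.2% together). The median log2 ratio of the 8 was -0.85, against -0.020 over all tested features. In CMT against CM 4 of the 8 were higher (CYP27A1, BAAT, SLC10A1 and NR1H4) and 0 were lower, where 12.1% of tested features were higher and 13.5% lower (25.7% together). In CMT against IM 0 of the 8 passed the threshold in either direction, where 6.67% of tested features were higher and 10.1% lower (16.8% together). NR0B2 stood apart here, being lower in CMT than in IM. CM entered both of the first comparisons, so a low or high value in that library moves both ratios in opposite directions.

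**Figure D1:**
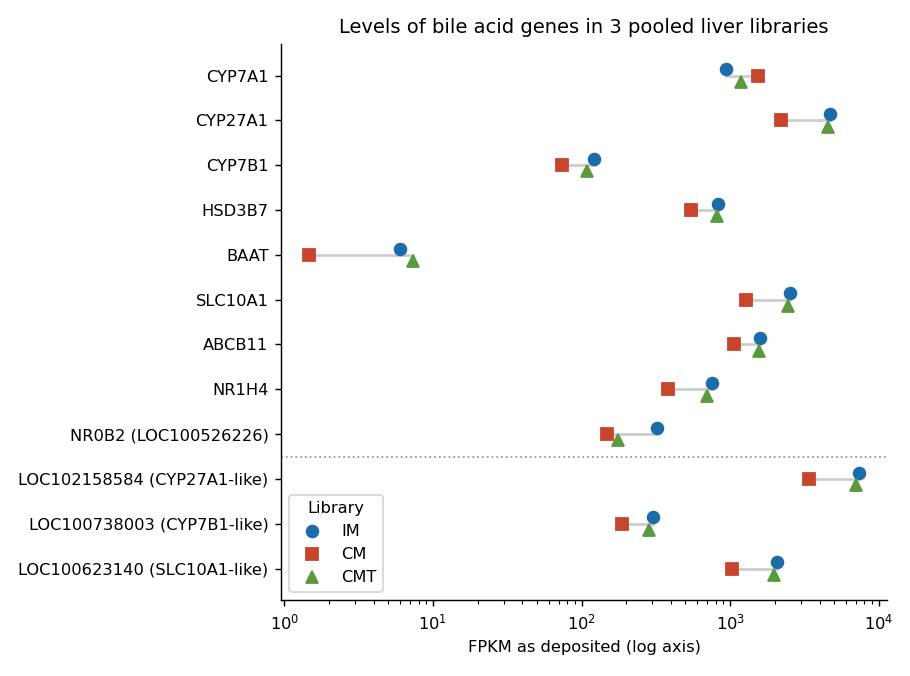
FPKM as deposited (log axis) of the 8 genes found by symbol, NR0B2 and, under the dotted line, 3 further entries for related proteins, with a circle for IM, a square for CM and a triangle for CMT. There are no error bars because each group is 1 pooled library. CM was the lowest library in every row except that of CYP7A1, where it was the highest at 1531 FPKM.

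CYP7A1, the rate-limiting enzyme of the classic route, measured 937 FPKM in IM against 1531 in CM and 1177 in CMT. CM was thus the highest library and IM the lowest, with CMT between them. The ratio of CM to IM was 1.63 (interval 1.59 to 1.68, on 8270 reads in IM and 18410 in CM), and 91.3% of tested features had a lower ratio. CMT was 0.769 times CM (0.749 to 0.789) and 1.26 times IM, both inside the 1.5-fold threshold. Scaled to the recovered reads, the log2 ratio of CM to IM became 0.99 and that of CMT to CM -0.62, the latter then past the threshold.

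CYP27A1, the mitochondrial sterol 27-hydroxylase that opens the alternative route and also oxidises the side chain in the classic route, ran the opposite way. It measured 4674 FPKM in IM against 2191 in CM and 4553 in CMT, the highest level of the 9 genes in each library. CM was 2.13-fold lower than IM (2.11 to 2.16), CMT was 2.08 times CM (2.05 to 2.10), and CMT lay at 0.974 times IM (0.964 to 0.985). Of all tested features, 3.96% had a lower ratio of CM to IM.

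CYP7B1, the oxysterol 7alpha-hydroxylase of the alternative route, measured 121 FPKM in IM against 73.5 in CM and 109.6 in CMT. Here too CM was the lowest, 1.65-fold under IM (1.54 to 1.78). CMT was 1.49 times CM (1.38 to 1.61), an interval that takes in the threshold. HSD3B7, the 3beta-hydroxysteroid dehydrogenase that both routes share after 7alpha-hydroxylation, measured 833 FPKM in IM against 547 in CM and 813 in CMT. It was 1.52-fold lower in CM than in IM (1.47 to 1.59), an interval that also takes in the threshold, and CMT was 1.49 times CM (1.43 to 1.55). HSD3B7 thus lay close to the threshold in both comparisons, and CYP7B1 in the second.

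BAAT, which joins bile acids to taurine or glycine, was listed at only 5.98 FPKM for IM, 1.46 for CM and 7.35 for CMT. These values correspond to 3, 1 and 3 reads for the shortest length that makes all of them whole, 200 bases. A common factor of the reads is lost where the true length is a multiple of that, so these are the fewest whole reads the values allow. Recovered lengths can also be too long, as for the mitochondrial genes ND6 and CYTB (3 times the annotated length), and reads are then overstated. With them the ratio of CM to IM was 0.245 with an interval of 0.00466 to 3.05, and that of CMT to CM was 5.03 with an interval of 0.404 to 264. Both intervals span 1. For whole reads they are the widest the values allow, since a longer true length would mean more reads. Whether the BAAT ratios exceed counting error is thus not known, although the fold rule counts BAAT in both comparisons.

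SLC10A1 (NTCP), the sodium-dependent transporter that takes conjugated bile acids up from portal blood, measured 2536 FPKM in IM against 1282 in CM and 2458 in CMT. CM was 1.98-fold lower than IM, CMT was 1.92 times CM, and CMT was 0.970 times IM. The shortest length that makes its values whole was 12780 bases, above the 10000 tried for all features, so it carries no interval. ABCB11 (BSEP), the pump that moves bile acids across the canalicular membrane into bile, measured 1595 FPKM in IM against 1069 in CM and 1560.0 in CMT. It was 1.49-fold lower in CM than in IM (1.47 to 1.52) and CMT was 1.46 times CM (1.43 to 1.49). The uptake transporter and the export pump thus had the same order of libraries, with a smaller ratio for the pump.

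NR1H4, which encodes FXR, measured 759.7 FPKM in IM against 382 in CM and 694 in CMT. CM was 1.99-fold lower than IM (1.91 to 2.08), CMT was 1.82 times CM (1.74 to 1.91), and CMT was 0.914 times IM (0.876 to 0.954). NR0B2, the FXR-induced corepressor SHP, measured 323 FPKM in IM against 149 in CM and 175 in CMT. It was 2.16-fold lower in CM than in IM (1.95 to 2.40). Unlike NR1H4, it stayed low in CMT, at 1.17 times CM (1.04 to 1.33) and 1.84-fold under IM (1.64 to 2.07). On the scale of recovered reads its log2 ratio of CMT to CM was -0.0061. NR0B2 was the only one of the 9 genes past 1.5-fold in CMT against IM, on 966 reads for IM, 608 for CM and 426 for CMT.

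**Figure D2:**
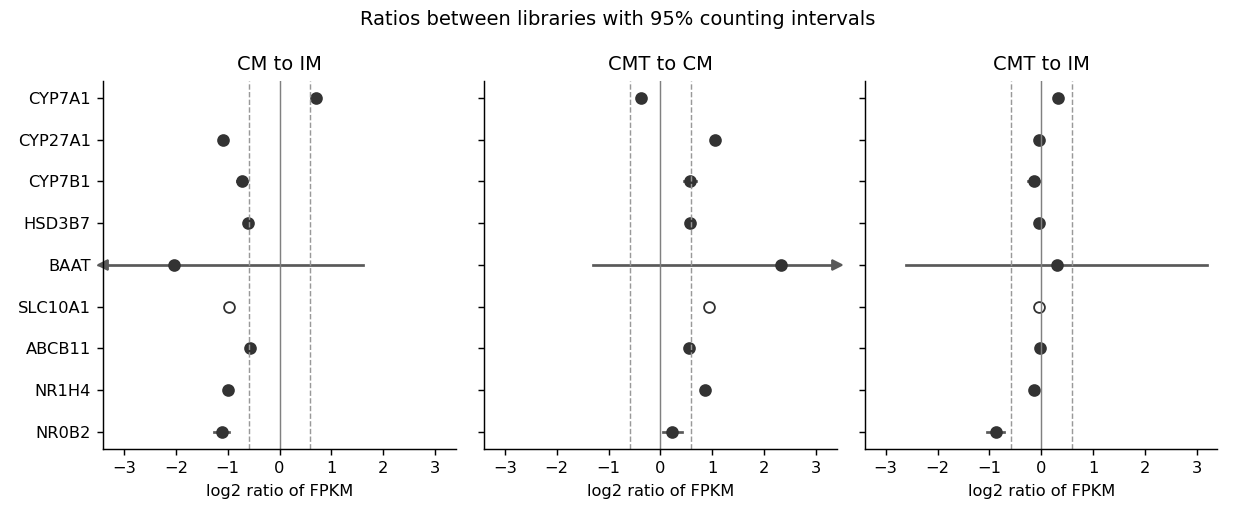
Log2 ratio of FPKM between libraries for the 8 genes found by symbol and NR0B2, with CM to IM, CMT to CM and CMT to IM from left to right. Bars are 95% counting intervals, shorter than the symbol for deeply read genes and cut by arrows for BAAT; the open symbol (SLC10A1) has no interval, and dashed lines mark 1.5-fold. CYP7A1 lies right of 0 at left (0.71), and NR0B2 alone lies past the dashed line at right (-0.88).

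Ratios of genes within a library do not depend on how the libraries were scaled. The level of CYP7A1 was 0.201 times that of CYP27A1 in IM, 0.699 times in CM and 0.259 times in CMT. Against SLC10A1 it was 0.370 times in IM, 1.19 times in CM and 0.479 times in CMT. Against NR1H4 it was 1.23 times in IM, 4.01 times in CM and 1.70 times in CMT. In each case CM held the highest ratio and CMT lay nearer to IM. Against NR0B2, CYP7A1 was 2.91 times in IM, 10.3 times in CM and 6.73 times in CMT, so that CMT lay farther from IM in this pair than in the others. By FPKM, CYP7A1 was the fourth of the 9 genes in IM and CMT, after CYP27A1, SLC10A1 and ABCB11, and the second in CM after CYP27A1. Such ratios show unequal differences and not which of the genes differed, and without replicates it cannot be said whether neighbours in the order differ beyond the spread between pigs.

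**Figure D3:**
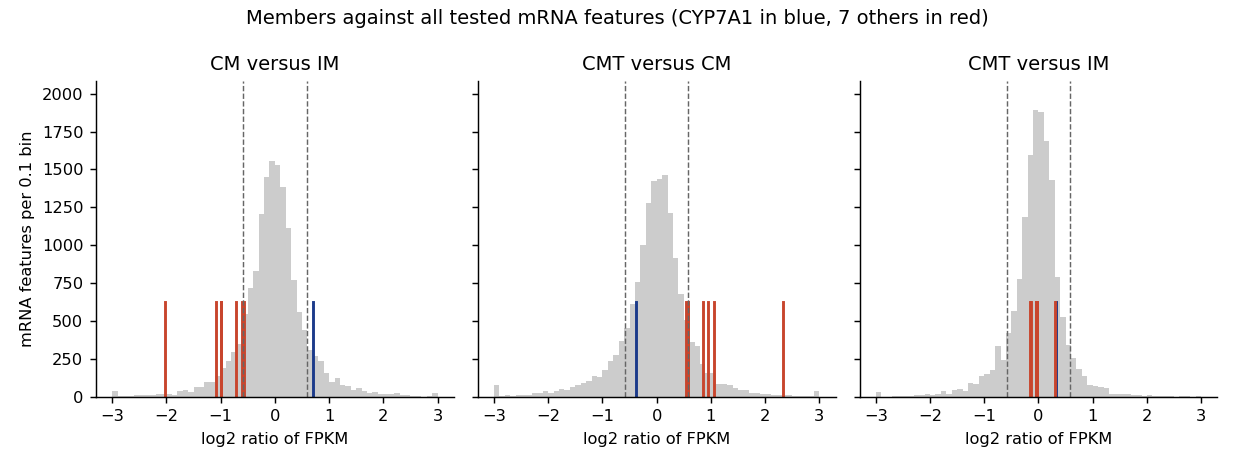
Numbers of mRNA features in bins of 0.1 of the log2 ratio of FPKM, over the 15613 features tested, for the 3 comparisons (values beyond 3 are put in the outermost bins). Short vertical lines mark CYP7A1 (blue) and the other 7 genes found by symbol (red), and dashed lines mark 1.5-fold. The red lines lie left of 0 in CM against IM, with a median of -0.85 over the 8, and all lines lie inside the dashed lines in CMT against IM, where BAAT (0.30) covers most of CYP7A1 (0.33).

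Rescaling a library adds the same amount to the log2 ratio of every gene, so it can move the counts past the threshold but not the differences between genes. Scaled to the recovered reads, CM against IM had 1 gene higher (CYP7A1) and 4 lower (CYP27A1, BAAT, SLC10A1 and NR1H4), where 22% of tested features were higher and 6.42% lower. On that scale CMT against CM had 4 higher (CYP27A1, BAAT, SLC10A1 and NR1H4) and 1 lower (CYP7A1), where 6.82% were higher and 22.4% lower. CMT against IM still had 0 past the threshold, where 7.49% were higher and 9.22% lower. Scaled to the median of the hepatocyte markers, CM against IM had 1 higher (CYP7A1) and 2 lower (CYP27A1 and BAAT). Each library was scaled by the median ratio of its markers to IM. This added 0.45 to every log2 ratio of CM to IM and -0.35 to every one of CMT to CM. The markers' own median for CMT to CM (0.29) was thus not brought to 0. The share of all tested features past the threshold was not computed for this scaling. On that scale CMT against CM had 3 higher (CYP27A1, BAAT and SLC10A1) and 1 lower (CYP7A1, at a log2 ratio of -0.73), and NR1H4 was inside the threshold at 0.51. In CM against IM, CYP7B1 and HSD3B7 were lower past the threshold as deposited and not on either of these scales.

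**Figure D4:**
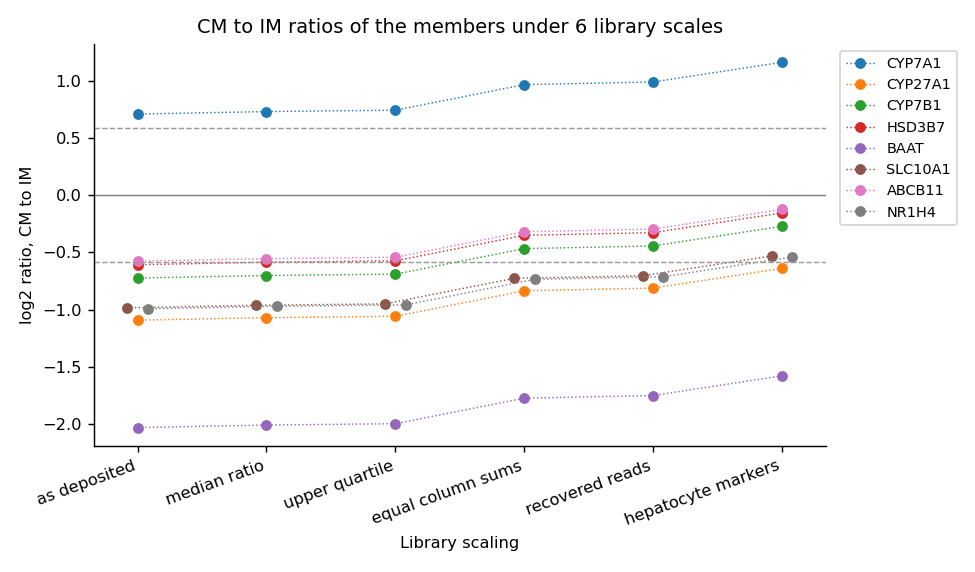
Log2 ratio of CM to IM (vertical axis) of the 8 genes found by symbol under 6 library scalings (horizontal axis), with dashed lines at 1.5-fold. SLC10A1 and NR1H4 nearly coincide and are drawn slightly apart. CYP7A1 stayed above the upper line on each scale, and the other 7 stayed below 0, with CYP27A1 and BAAT below the lower line throughout.

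The annotation held further entries for the same kinds of protein, which the study listed among its changed genes, so that their direction is not independent evidence. All 7 were lower past 1.5-fold in CM than in IM, where 12.1% of all tested features were lower. All 7 were higher past it in CMT than in CM, where 12.1% were higher. In CMT against IM 0 passed the threshold, where 16.8% did in either direction. Because the entries were picked from changed genes, the full counts are not a result about them. LOC102158584, annotated as a sterol 26-hydroxylase-like protein and so a relative of CYP27A1, measured 7406 FPKM in IM against 3389.7 in CM and 7030.4 in CMT. LOC100623140, a sodium/bile acid cotransporter-like entry, measured 2075 FPKM in IM against 1032 in CM and 1983 in CMT. Its shortest length was the 12780 bases found for SLC10A1. LOC100738003, like an oxysterol 7alpha-hydroxylase, measured 300.4 FPKM in IM against 188 in CM and 283 in CMT.

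These entries moved with their named relatives. LOC100623140 was 0.818, 0.805 and 0.807 times SLC10A1 in IM, CM and CMT, and LOC102158584 was 1.58, 1.55 and 1.54 times CYP27A1. LOC100738003 was 2.47, 2.56 and 2.58 times CYP7B1. How reads shared by near-identical entries were divided is not given in the sources used here, so the levels of CYP27A1, CYP7B1 and SLC10A1 are uncertain to that extent. With each pair summed, the log2 ratio of CM to IM was -1.11 for CYP27A1 and -0.69 for CYP7B1, and that of CMT to CM for SLC10A1 was 0.94. The summed CYP7B1 pair passed 1.5-fold in CMT against CM, which made 5 genes higher there in place of 4, and the counts of the other comparisons were unchanged. The 3 bile acyl-CoA synthetase-like entries, whose enzyme activates bile acids for conjugation, had the highest levels of the 7. LOC102158419, which carries the RefSeq gene ID of SLC27A5, measured 17929 FPKM in IM against 10359 in CM and 16456 in CMT. It is counted again as SLC27A5 in the lists below. The other bile acyl-CoA synthetase-like entries were lower in CM as well.

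Of 63 further bile acid pathway genes, 56 were matched and 50 passed the FPKM minimum. In CM against IM 6 were higher and 10 lower (12% and 20% of the 50, against 11.1% and 12.1% of all tested features), with a median log2 ratio of -0.054. In CMT against CM 13 were higher and 5 lower (26% and 10%, against 12.1% and 13.5%), with a median of 0.093. In CMT against IM 6 were higher and 5 lower (12% and 10%, against 6.67% and 10.1%), with a median of -0.016. Over the whole list the median thus lay near that of all tested features, which was -0.020, 0.013 and -0.0072 in the 3 comparisons. Scaled to the recovered reads the split turned, with 12 higher and 9 lower in CM against IM, where 22% of all tested features were higher and 6.42% lower. In CMT against CM it had 8 higher and 17 lower, where 6.82% of all tested features were higher and 22.4% lower. As deposited, 14 genes listed under synthesis were tested, mostly for the sterol nucleus and side chain but including carriers such as STARD4. Of these, 0 were higher and 6 lower in CM against IM (0% and 42.9%, median -0.58). In CMT against CM 8 were higher and 1 lower (57.1% and 7.14%, median 0.70).

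AMACR, the racemase that prepares the side chain for peroxisomal shortening, measured 3505 FPKM in IM against 1006 in CM and 3623 in CMT. Its log2 ratio was -1.80 for CM to IM and 1.85 for CMT to CM. HSD17B4, the peroxisomal bifunctional enzyme of the same step, measured 4717 FPKM in IM against 1572 in CM and 4866 in CMT. In both genes CMT lay within 0.05 of IM on the log2 scale. CYP39A1, which hydroxylates 24-hydroxycholesterol, measured 237 FPKM in IM against 99.3 in CM and 180.2 in CMT, and LOC100738724, an entry for the same enzyme, 180.1, 72.7 and 131. STARD4, a cholesterol carrier, measured 245 FPKM in IM against 97.3 in CM and 269 in CMT. CYP4A21, a porcine bile acid hydroxylase, measured 6621 FPKM in IM against 3316 in CM and 7002 in CMT. These genes and SLC27A5 were the 6 lower ones, and they were again higher in CMT than in CM. The peroxisomal oxidase ACOX2 (2579, 1728 and 2864 FPKM in IM, CM and CMT) and the acyl-CoA synthetase SLC27A2 (1133, 772 and 1359) passed the threshold in CMT against CM alone. CH25H, the cholesterol 25-hydroxylase, was the 1 gene of this group lower in CMT than in CM, at 23.2, 16.0 and 10.3 FPKM, and the interval of that ratio (0.351 to 1.13) spanned 1. SULT2A1, which sulphates bile acids, measured 2611 FPKM in IM against 3448 in CM and 1507 in CMT, and CMT was 0.437 times CM (0.420 to 0.455).

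**Figure D5:**
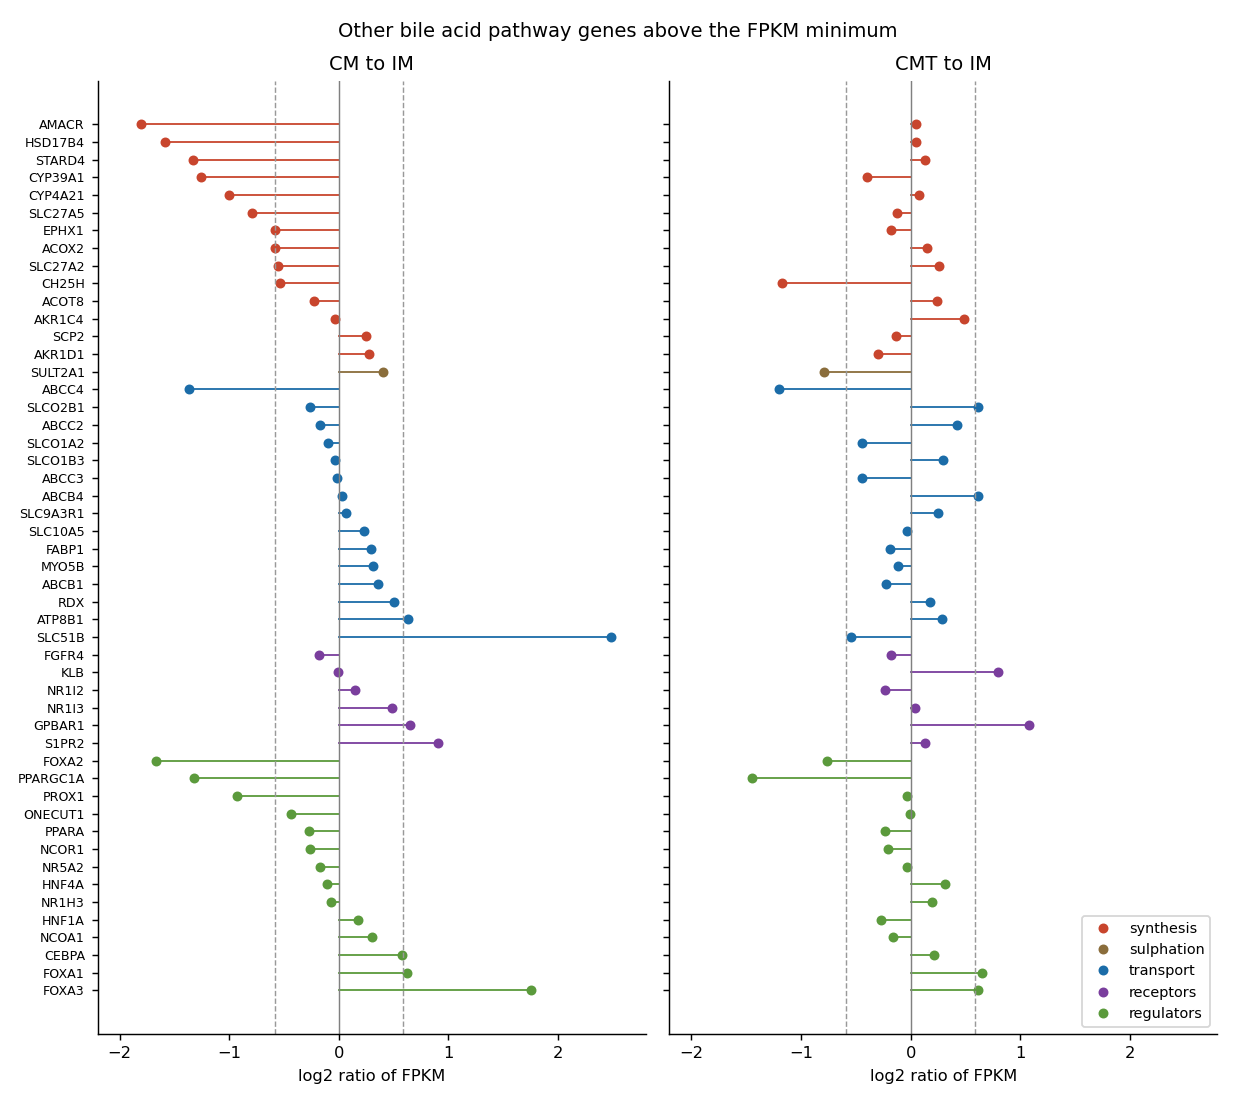
Log2 ratio of FPKM, CM to IM at left and CMT to IM at right, of the 50 further bile acid pathway genes above the minimum, ordered within each role by the left panel; dashed lines mark 1.5-fold. The synthesis genes (top) reach -1.80 at AMACR in CM and lie between the dashed lines in CMT except CH25H, and SLC51B (2.49) is the rightmost transport gene in CM.

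Among 15 tested transport genes 2 were higher and 1 lower in CM against IM. These were 13.3% and 6.67%, against 11.1% and 12.1% of all tested features. SLC51B, the beta subunit of the basolateral exporter OST and a textbook FXR-induced gene, measured 39.4 FPKM in IM against 220.5 in CM and 27.0 in CMT. CM stood far above the others, at 5.60 times IM (4.56 to 6.94, on 104 and 794 reads), and CMT was 8.17-fold lower than CM (6.25 to 10.9). Its partner subunit SLC51A was at 2.15, 1.18 and 0.66 FPKM on 8, 6 and 2 reads, too few to compare. The SLC51B ratio moved with markers of bile duct cells, which also express it. Of 10 cholangiocyte markers, all matched and above 0 in every library, 3 (EPCAM, SOX9 and CFTR) were higher in CM than in IM past 1.5-fold and 0 lower, with a median log2 ratio of 0.42. Their summed FPKM was 1322 for IM, 1472 for CM and 1763 for CMT, and the ratio of CM to IM was 1.71 for EPCAM and 3.58 for KRT7, whose entry is not listed as mRNA. The part of these cells in the SLC51B value was not tested. ATP8B1, a canalicular lipid flippase, was also higher in CM (96.3, 149 and 117 FPKM in IM, CM and CMT). ABCC4, a basolateral exporter, was lower in CM (3.34, 1.30 and 1.45 FPKM), at a low level without recovered reads. SLCO2B1 (663, 552 and 1018 FPKM) and the canalicular conjugate pump ABCC2 (548, 487 and 734) were higher in CMT than in CM. With SLC51B lower, these were 13.3% and 6.67% of the 15, against 12.1% and 13.5% of all tested features. ABCC2 in CMT was 1.51 times CM, close to the threshold and without recovered reads.

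Of the genes that carry the FGF19 signal in liver, the receptor FGFR4 measured 297 FPKM in IM against 263 in CM and 262 in CMT. Its co-receptor KLB measured 12.8 FPKM in IM against 12.7 in CM and 22.2 in CMT, and CMT was 1.75 times CM (1.38 to 2.23). FGF19 itself was listed at 0 in every library, as were the ileal genes SLC10A2 and FABP6, where 3 reads on 1 kb would have given 1.20 FPKM for IM, 0.877 for CM and 1.47 for CMT. The membrane receptors GPBAR1 (6.90, 10.9 and 14.6 FPKM in IM, CM and CMT) and S1PR2 (6.96 FPKM in IM, 7.61 in CMT and 1.88 times the IM level in CM) were counted as higher in CM than in IM. They rested on 7 to 15 and 16 to 46 reads, and the interval for GPBAR1 (0.604 to 4.56) spanned 1. S1PR2 was also counted as lower in CMT than in CM, with an interval (0.308 to 1.05) that spanned 1.

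Among 14 tested regulators of CYP7A1 transcription, 2 were higher and 3 lower in CM against IM. These were 14.3% and 21.4%, against 11.1% and 12.1% of all tested features. In CMT against CM 2 were higher (FOXA2 and PROX1) and 1 lower (FOXA3), or 14.3% and 7.14%, against 12.1% and 13.5%. FOXA2, a hepatocyte pioneer factor, measured 174 FPKM in IM against 54.6 in CM and 102 in CMT, and FOXA3 ran the other way at 59.6, 201 and 91.2. FOXA1 measured 59.3 FPKM in IM against 91.0 in CM and 93.3 in CMT. PROX1, a corepressor, was lower in CM alone (243, 128 and 237 FPKM), and the coactivator PPARGC1A was lower in both castrated groups than in IM (152, 60.8 and 55.6). HNF4A (896, 829.8 and 1114 FPKM), the LRH-1 gene NR5A2 (118, 105 and 115) and the LXR gene NR1H3 (1117, 1062 and 1279) stayed within 1.5-fold in each comparison.

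Of 15 textbook FXR-induced genes, which include NR0B2, ABCB11 and BAAT of the members, 14 were matched and 11 tested. In CM against IM SLC51B was higher, and NR0B2, BAAT, SLC27A5 and KNG1 were lower, with a median log2 ratio of -0.21. Of the 11, 9.09% were thus higher and 36.4% lower, against 11.1% and 12.1% of all tested features, and BAAT rested on few reads. KNG1, which encodes kininogen, measured 12576 FPKM in IM against 6687 in CM and 13965 in CMT. In CMT against CM BAAT, SLC27A5 and KNG1 were higher and SLC51B lower (27.3% and 9.09%, against 12.1% and 13.5% of all tested features). In CMT against IM ABCB4 was higher (134, 137 and 205 FPKM in IM, CM and CMT) and NR0B2 lower. Each was 9.09% of the 11, against 6.67% and 10.1% of all tested features. Of 5 tested genes that FXR signalling is known to lower, CYP7A1 was higher and CYP27A1 and SLC10A1 lower in CM against IM (20% and 40%). CYP27A1, SLC10A1 and the hepatic lipase gene LIPC (1579, 1202 and 1874 FPKM) were higher in CMT against CM (60%, with 0 lower). The shares of all tested features are those given above. Each list thus held genes past the threshold in both directions in CM against IM, with 1 higher in each (SLC51B and CYP7A1).

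By the distance between pairs of log2 ratios (CM to IM and CMT to IM), the 5 features most like CYP7A1 among 12127 mRNA features with at least 10 FPKM were RFTN1, CD48, TFEC, ATL3 and LOC100620700. Their distances were 0.00698 to 0.0278, over 3 libraries. RFTN1, for example, measured 24.7 FPKM in IM against 40.2 in CM and 31.0 in CMT. CD48 is a leukocyte surface gene, and the FPKM of 10 T and NK cell markers summed to 615 for IM, 837 for CM and 462 for CMT. The median log2 ratio of these markers was 0.46 for CM to IM and -0.52 for CMT to IM. In CMT to IM, CYP7A1 (0.33) and CD48 (0.32) thus ran the other way from the markers. With 3 values a gene, this likeness is a description only.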

How the data were processed

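Per the labels, liver RNA of 3 pigs per group was pooled. The paper describes larger groups and does not say how many pigs entered a pool. From each pool 1 TruSeq library was sequenced as paired ends. The authors checked reads with FastQC, mapped them with TopHat to Sscrofa10.2 and deposited FPKM values per feature. The counting program and annotation are not given in the sources used here. Ratios of FPKM were taken as deposited, with no pseudocount, for mRNA features reaching 1 FPKM in each of the 3 libraries, with 1.5-fold as the threshold. Low FPKM values were whole multiples of a step, which gave 1 divisor per library and whole reads for 95.1% of features above 0 (lengths up to 10000 bases). The recovery was tested on simulated data, and of 13 mitochondrial genes 9 recovered lengths lay within 2 bases of the RefSeq annotation. Those of COX2 and ND3 were 0.5 times the annotated length, and those of ND6 and CYTB 3 times. Recovered reads of a feature can thus be too few or too many, and its interval too wide or too narrow. Clopper-Pearson intervals used these reads and cover counting error only. Genes lacking a symbol were matched through RefSeq (Sscrofa11.1) IDs or synonyms. All named members, the further entries, and pathway and FXR genes past 1.5-fold in CM against IM or CMT against CM were named, with the FGF19 arm and the 5 features most like CYP7A1. Members and lists were chosen with earlier results of these data known. No sequence or coordinate was used. Software was Python 3.11.15, numpy 2.4.6, pandas 2.3.3, scipy 1.17.1 and matplotlib 3.10.9. Other scalings, thresholds, minimums and a pseudocount of 1 were tried as alternatives.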

Additional observations from a re-analysis of the deposited data

How the results depend on the processing

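With 1 pooled library per group, no library could be left out and no test made. Few reads were recovered for BAAT, GPBAR1, S1PR2, CH25H and SLC51A. A lost common factor would mean more reads, and a length recovered too long would mean fewer. No paired analysis was possible because each group has 1 library. Of 171 values of the comparisons under alternatives, 145 stayed close to the value as reported and 26 moved. Close meant within 1.5 times for counts, both directions together. For the members' medians it meant a shift no larger than the reach of the members' median counting interval to either side. Of 147 values for single genes 75 stayed within their counting interval or kept their value. Leaving BAAT out and adding NR0B2 were chosen after seeing the data.

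In CM against IM, the count of members (7) became 3 when scaled to hepatocyte markers and 2 at 2-fold. The count of further pathway genes (16) became 26 (19 higher, 7 lower) and 9 under these, FXR-induced genes (5) became 3 at 2-fold, and genes lowered by FXR (3) became 1. The members' median (-0.85) became -0.57 scaled to recovered reads, -0.60 to column sums and -0.40 to hepatocyte markers. In CMT against CM, the count of members (4) became 2 at 2-fold. It was also 2 when the counting interval had to exclude 1, with reads whole or halved, since BAAT's interval spans 1 and SLC10A1 has none. Further pathway genes (18) became 7 at 2-fold and genes lowered by FXR (3) became 1. The median (0.72) became 0.48, 0.47 and 0.37 under those scalings, 0.81 as a mean, 0.58 with NR0B2 and 0.58 without BAAT. In CMT against IM, members (0) became 1 with NR0B2, further pathway genes (11) became 4 at 2-fold, and FXR-induced genes (2) became 1 scaled by the upper quartile and 0 at 2-fold. The median (-0.036) changed sign, to 0.062 scaled to hepatocyte markers, 0.025 as a mean and 0.0054 scaled to recovered reads.

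The split of further pathway genes in CMT against CM, 13 higher and 5 lower as deposited, turned to 8 and 17 scaled to recovered reads, 8 and 18 to column sums and 4 and 20 to hepatocyte markers. In CM against IM, 6 higher and 10 lower became 12 and 9, 11 and 9, and 19 and 7.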
